A study of Mus musculus with 6 samples.

Results

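The genes of TGF-beta, BMP and activin signaling were examined in hearts of young mice with and without an active human SRY transgene. The members were the probes whose gene symbol begins with the name of a TGF-beta (Tgfb), BMP, GDF or inhibin ligand, of one of their receptors, of a SMAD, of a latent TGF-beta binding protein (Ltbp) or of a follistatin (Fst), gremlin (Grem) or Bmper type antagonist. They came to 58 genes with 86 probes, out of 18138 gene symbols with 25697 probes on the array. A symbol rule also catches other proteins with a matching symbol, such as Tgfb1i1, Tgfbi, Tgfbrap1, Bmp1 and Bmp2k, and these were kept apart from ligands, receptors and antagonists.

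Hearts of male FVB mice (FVB/N in the methods) at postnatal day 6 were profiled on expression arrays, with 3 hearts in each of 2 groups. The hSRY-ON hearts carried the Signalox-hSRY transgene after Cre recombination, so that a FLAG-tagged human SRY joined by an IRES to EGFP lay behind the CAG promoter, which is active in most tissues. The recombinase came as protein in the oocytes of Ddx4-Cre mothers, and the pups used did not carry the Ddx4-Cre transgene themselves. The methods use the name hSRY-OFF for mice that carry the transgene in its unrecombined, silent form, whereas control pups elsewhere in the study had Ddx4-Cre alone or neither transgene, so the exact genotype of the hSRY-OFF hearts is uncertain. All carriers had 1 transgene insertion at one site, and since SRY was active from the earliest embryo, the heart was not its sole site of expression. The array was designed for mouse genes, and the mouse Sry probe was detected on 0 of the 6 arrays, so the arrays themselves gave no reading of the transgene.

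TGF-beta family ligands are secreted dimers that bring together a type II and a type I receptor, both kinases. The type I receptor then phosphorylates a SMAD, SMAD2 or SMAD3 for TGF-beta and activin and SMAD1, SMAD5 or SMAD9 for BMPs, which moves to the nucleus with SMAD4. Latency proteins hold TGF-beta in the matrix, antagonists such as follistatin and gremlin bind ligands outside the cell, and SMAD6 and SMAD7 block the signal inside it. In the heart BMP signals help to form the myocardium and the cushions, and TGF-beta is known for driving matrix deposition by fibroblasts.

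Between 12138 and 13172 probes were detected per array (47.2 to 51.3% of all), and between 49 and 52 of the 86 member probes were. The third hSRY-OFF heart gave the dimmest array, with a mean intensity of 631 before normalization against 723 to 939 on the others. The first hSRY-ON heart stood apart by transcripts of other tissues, named after their values were seen and given as levels on the normalized log2 scale. Scgb1a1, a secretory protein of airway epithelium, was at 13.74 there against 4.53 to 6.52 in the other 5 hearts, the lung surfactant protein Sftpd at 9.58 against 4.61 to 5.04, and the cartilage collagen Col2a1 at 7.26 and 7.27 at its 2 probes against 4.62 to 5.16. Their part in the results was not tested, and the counts without this heart are given below. Ucp1, a brown fat gene, was at 4.64, 5.03 and 8.88 in the hSRY-OFF hearts and 10.81, 8.80 and 9.94 in the hSRY-ON hearts, so the third hSRY-OFF heart stood apart from its group. Probes detected (a detection p-value below 0.05) in 3 or more hearts entered the test, which 51 member probes of 35 genes did. All levels below are normalized log2 intensities, and all differences are hSRY-ON minus hSRY-OFF on that scale from limma's moderated test, called at an adjusted p under 0.05 with Benjamini-Hochberg adjustment over all 12970 tested probes. The hearts are separate samples by label and biological replicates by the methods, and with 3 against 3 an exact two-sided permutation test of a single value cannot go below p = 0.1.

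The 3 TGF-beta ligands Tgfb1, Tgfb2 and Tgfb3, the inhibitory SMAD Smad6 and the activin antagonist follistatin (Fst) were all higher in the hSRY-ON hearts, and the GDF ligand Gdf15 was lower. Of the 51 tested member probes 13 rose (25.5%) and 1 fell (1.96%), for 11 genes higher and 1 lower. Over all tested probes 27.5% were called, 13.8% higher and 13.7% lower, so the members were called as often as probes in general (27.5% of members), while the split between directions was uneven. The median member difference was 0.28, against 0.00 over all tested probes, and 39 of the 51 (76.5%) lay above 0. All hSRY-ON hearts lay above all hSRY-OFF hearts for 23 member probes (45.1%) and below them for 1 (1.96%). Over all tested probes the groups were separate for 45.2%, with hSRY-ON above for 23.6% and below for 21.6%.

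**Figure D1:**
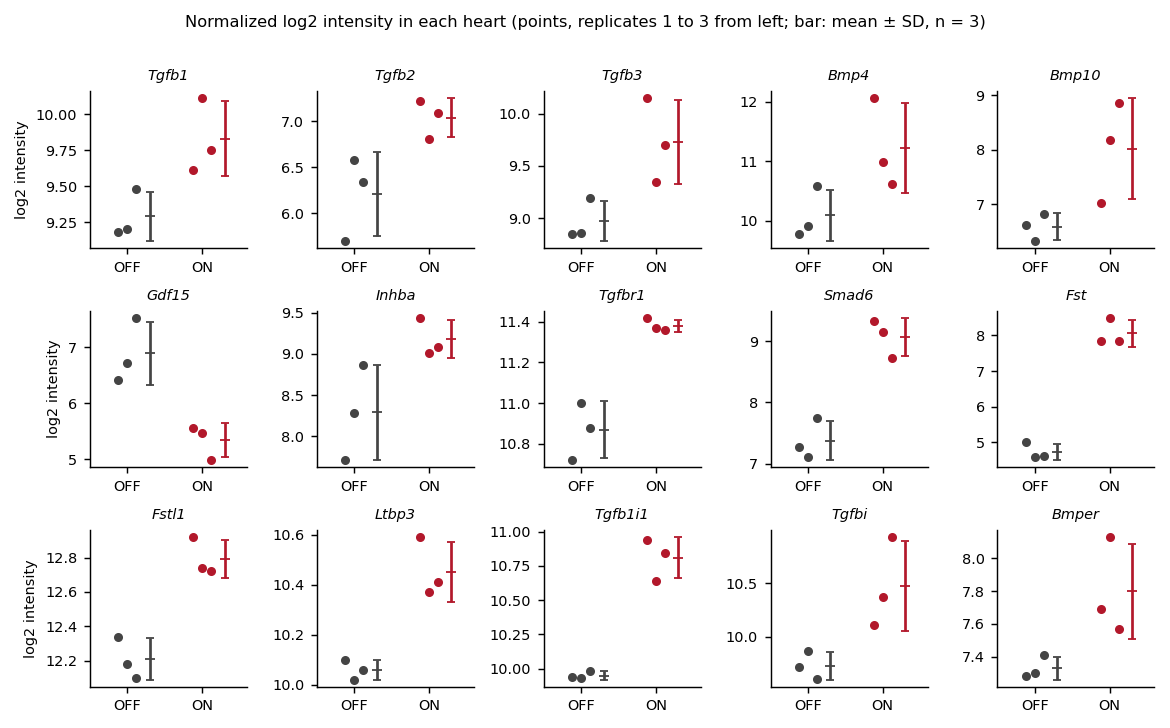
Normalized log2 intensity in the 3 hSRY-OFF and the 3 hSRY-ON hearts for the brightest tested probe of each of the 12 called member genes and of Bmp4, Inhba and Bmper, which were not called. Points are hearts (replicates 1 to 3 from the left) and bars the mean ± SD (n = 3), each panel having its own scale. The groups do not overlap in any panel drawn, and Gdf15 is the gene that is lower in hSRY-ON. Other uncalled members are not drawn. Among them are members whose groups overlap, and also Tgfbr3, Tgfbrap1 and Bmp1, whose groups are separate at their brightest probe. Over all tested probes the groups were separate for 45.2%.

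The size of these counts depended on how the arrays were scaled. Without normalization between arrays the median of all tested probes moved to -0.12, only 38.5% of all calls were higher instead of 50.1%, and the members held 4 higher and 1 lower; Fst, Smad6, Bmp10 and Gdf15 kept their calls there, the other 10 called probes lost theirs, and Bmp4 was called. Without a probe filter, where 8 members were higher, the calls of Tgfb1, Tgfb2, Tgfb3, Bmp10 and Tgfbi were lost. With each array scaled to the median of its detected probes 65.7% of all calls were higher and the members held 18 higher and 1 lower. Leaving out hSRY-OFF replicate 1 cut the members called higher from 13 to 5, leaving out hSRY-OFF replicate 2 or hSRY-ON replicate 3 to 8, and fitting the replicate number as a block to 7. Without hSRY-ON replicate 1, the heart with airway and cartilage transcripts, 9 members were higher and 1 lower, and the probes of Tgfb2 (0.75, limma adjusted p = 0.105), Tgfb3 (0.56, 0.0813), Tgfbr1 (0.49, 0.0663) and Ltbp3 (0.56, 0.0627, and 0.33, 0.14) lost their calls, while the second Tgfbi probe gained one (0.95, 0.015). The call was kept by 6 probes, those of Fst, Fstl1, Gdf15, Smad6 and both of Tgfb1i1, when any 1 heart was left out, and no called probe turned its sign under any setting tried.

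**Figure D2:**
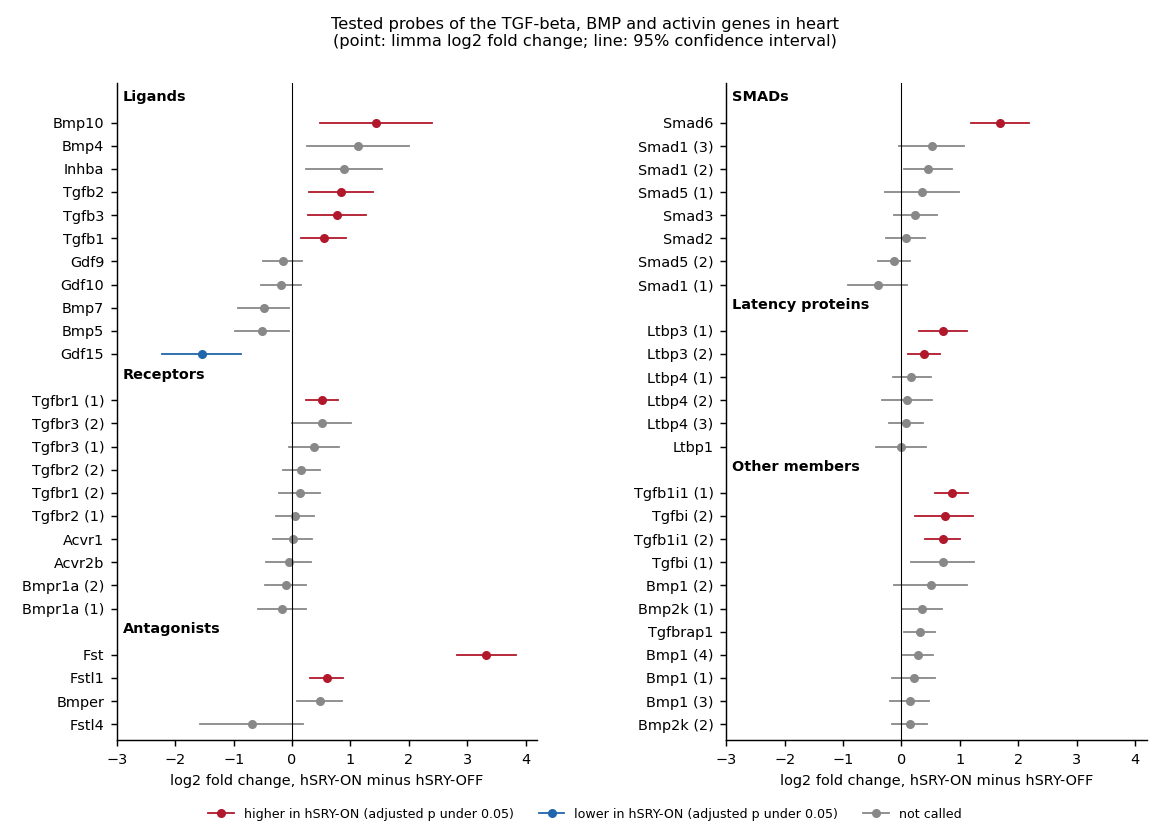
Difference between hSRY-ON and hSRY-OFF hearts (log2, hSRY-ON minus hSRY-OFF) for 50 of the 51 tested member probes, grouped by role, with 95% confidence intervals from limma and red for called higher, blue for called lower and grey for not called; numbers in brackets tell probes of a gene apart. Fst is farthest to the right (fitted 3.33), Gdf15 farthest to the left (-1.55), and the receptor probes lie between -0.18 and 0.51.

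Promoter windows were printed for Smad6, the SMAD that was called, for Tgfb1, a called ligand, and for Gdf15, the member that fell. Each is the 250 bases upstream of a RefSeq transcript start (GRCm38.p6), written from 5′ to 3′ on the gene's strand, with capitals marking the SRY and SOX core AACAAT in Smad6 and the SMAD box CAGAC, read on its other strand as GTCTG, in Gdf15. The windows lie at chr9:64022060-64022309 on the minus strand for Smad6, at chr7:25686752-25687001 on the plus strand for Tgfb1 and at chr8:70632457-70632706 on the minus strand for Gdf15. The annotated Smad6 and Gdf15 genes reach 26 and 14 bases into their windows.
Smad6: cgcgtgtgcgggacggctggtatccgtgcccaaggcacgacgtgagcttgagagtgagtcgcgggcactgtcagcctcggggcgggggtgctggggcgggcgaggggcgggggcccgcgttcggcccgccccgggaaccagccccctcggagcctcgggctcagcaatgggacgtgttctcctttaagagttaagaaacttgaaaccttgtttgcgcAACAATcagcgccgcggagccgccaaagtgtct
Tgfb1: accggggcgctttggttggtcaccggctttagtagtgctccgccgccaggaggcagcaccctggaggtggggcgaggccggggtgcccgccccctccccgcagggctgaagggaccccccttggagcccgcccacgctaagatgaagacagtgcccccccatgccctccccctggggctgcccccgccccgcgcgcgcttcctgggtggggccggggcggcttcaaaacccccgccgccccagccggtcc
Gdf15: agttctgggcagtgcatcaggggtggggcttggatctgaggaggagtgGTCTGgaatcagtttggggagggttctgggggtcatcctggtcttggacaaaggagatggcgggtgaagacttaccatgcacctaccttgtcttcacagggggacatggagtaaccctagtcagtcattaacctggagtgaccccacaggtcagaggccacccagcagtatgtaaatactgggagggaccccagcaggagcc

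RefSeq windows were matched for 26 of the 35 tested member genes and 9 of the 12 called genes, which had 11 windows. Searched on both strands, AACAAT was in 9.42% of all 32851 windows and in 1 of the 11, that of Smad6, beginning 33 bases before the start. CAGAC was in 42.2% of all windows and in 6 of the 11, and the GC-rich SMAD site GGCGCC in 9.59% of all and 2 of the 11. Tgfb1 held none of these letters in its window. Tgfb2 held CAGAC beginning 221 and 204 bases before an annotated start, in a window wholly inside the gene. The printed Gdf15 window held it 202 bases before its start. A second Gdf15 window, not printed and wholly inside the gene, held it 116 bases before another start. No printed window held more than 1 of the 3 motifs. These matches are a description of the sequence.

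Among ligands, 11 of 23 probes were tested, 4 rose and 1 fell, and the median difference was 0.54. That is 45.5% called, against 27.5% over all tested probes. The TGF-beta ligands, which signal through SMAD2 and SMAD3, were all 3 called. Tgfb1, the ligand best known in tissue repair, read 9.18, 9.20 and 9.48 in the hSRY-OFF hearts and 9.61, 10.11 and 9.75 in the hSRY-ON hearts, a difference of 0.54 (SE 0.17, limma adjusted p = 0.0469). Each hSRY-ON heart was above every hSRY-OFF heart, by a narrow margin between hSRY-OFF replicate 3 and hSRY-ON replicate 1. The call was lost on leaving out replicate 1 or 2 of hSRY-OFF or replicate 2 or 3 of hSRY-ON, with differences between 0.40 and 0.65 over the 6 omissions and adjusted p up to 0.145, and it was lost with the replicate block (limma adjusted p = 0.0763).

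Tgfb2, which is needed for valve and septum formation, read 5.70, 6.58 and 6.34 in hSRY-OFF and 7.22, 6.81 and 7.09 in hSRY-ON (0.83, SE 0.24, limma adjusted p = 0.035). The groups were separate, with hSRY-OFF replicate 1 the lowest of all hearts. The difference was 0.34 without background correction, where the call stood, and the call was lost when replicate 1 or 3 of either group was left out (0.58 to 1.01, adjusted p up to 0.105) and with the block (0.0776). Tgfb3 read 8.85, 8.86 and 9.19 in hSRY-OFF and 10.15, 9.35 and 9.70 in hSRY-ON (0.77, SE 0.21, limma adjusted p = 0.0338). The hSRY-ON hearts were all higher, hSRY-ON replicate 1 most. Its call was lost on omitting replicate 1 or 2 of hSRY-OFF, or replicate 1 or 3 of hSRY-ON (0.56 to 0.96, adjusted p up to 0.107) and with the block (0.052).

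The BMP and GDF ligands did not share one direction. Of 7 tested probes Bmp10 rose and Gdf15 fell (28.6% called, near the 27.5% over all tested probes), with a median difference of -0.19. Bmp10, a ligand made by heart muscle, read 6.62, 6.33 and 6.82 in hSRY-OFF and 7.03, 8.18 and 8.85 in hSRY-ON (1.43, SE 0.41, limma adjusted p = 0.0378). The hSRY-ON hearts spread widely, with replicate 1 just above the hSRY-OFF hearts and replicate 3 far above them. The difference was 0.81 without background correction, and the call was lost on leaving out any hSRY-OFF heart or hSRY-ON replicate 2 or 3 (1.02 to 1.93, adjusted p up to 0.109). Gdf15, a secreted stress-response factor that acts on a receptor outside this family, read 6.42, 6.72 and 7.53 in hSRY-OFF and 5.56, 5.47 and 4.98 in hSRY-ON, a fall by 1.55 on the log2 scale (SE 0.29, limma adjusted p = 0.00728). Every hSRY-ON heart was below every hSRY-OFF heart, and the probe was detected in 2 of the 3 hSRY-ON hearts. The call was kept under every setting that tested the probe, at -0.56 without background correction.

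Bmp4, a ligand of early heart and outflow tract formation, missed the threshold. Its levels were 9.78, 9.91 and 10.58 in hSRY-OFF and 12.06, 10.99 and 10.61 in hSRY-ON, a difference of 1.13 (95% interval 0.25 to 2.01, limma adjusted p = 0.0608). The groups did not overlap, but hSRY-ON replicate 3 lay just above the highest hSRY-OFF heart. The call was made without hSRY-OFF replicate 3 or hSRY-ON replicate 3, between 0.71 and 1.44 over all omissions, and under 6 of the other settings. Inhba, the subunit of activin A, read 7.71, 8.28 and 8.87 in hSRY-OFF and 9.44, 9.01 and 9.09 in hSRY-ON (0.89, 95% interval 0.24 to 1.54, limma adjusted p = 0.0509), again without overlap and called under 7 other settings and without hSRY-OFF replicate 3. The remaining tested ligands were Bmp5 (-0.52), Bmp7 (-0.48), Gdf10 (-0.19) and Gdf9 (-0.16), none of them called.

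Among receptors, 10 of 22 probes were tested, 1 rose and none fell, and the median difference was 0.09. That is 10% called, against 27.5% over all tested probes, a gap that rests on few probes. The called probe was one of Tgfbr1, the type I receptor of TGF-beta, at 10.72, 11 and 10.88 in hSRY-OFF and 11.42, 11.37 and 11.36 in hSRY-ON (0.51, SE 0.12, limma adjusted p = 0.0188). The hSRY-ON hearts stood close together and above all hSRY-OFF hearts. The call was lost without hSRY-OFF replicate 1 or hSRY-ON replicate 1 (0.44 to 0.58 over the omissions, adjusted p up to 0.0787) and with the block (0.0502). A second, dim Tgfbr1 probe read 5.42, 5.37 and 5.16 against 5.51, 5.62 and 5.20 (0.13, 95% interval -0.22 to 0.48), so the probes of this gene did not give the same result.

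Tgfbr2, the type II receptor of TGF-beta, had differences of 0.05 and 0.16 at its 2 tested probes. Tgfbr3, the co-receptor betaglycan, had 0.38 and 0.51, with all hSRY-ON hearts above the hSRY-OFF hearts at both probes and limma adjusted p of 0.167 and 0.124. The BMP type I receptor Bmpr1a had -0.18 and -0.11, the type I receptor Acvr1 had 0.01, and the activin type II receptor Acvr2b had -0.06. The 95% intervals of these uncalled receptor probes reached from -0.59 (Bmpr1a) to 1.01 (Tgfbr3), so changes within those bounds were not excluded by these 6 arrays.

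Smad6, the inhibitory SMAD that is itself induced by BMP signals and restrains them, was the one SMAD called. It read 7.28, 7.12 and 7.74 in hSRY-OFF and 9.33, 9.15 and 8.73 in hSRY-ON (1.69, SE 0.21, limma adjusted p = 0.00146), 3.23-fold higher. The gap between the groups was wider than the spread within either. The call held under every setting tried, between 1.16 without background correction and 1.88. None of the 7 tested probes of receptor-activated SMADs was called, against 27.5% of all tested probes. Smad1 had -0.41, 0.46 and 0.52 at its 3 probes, Smad5 had 0.35 and -0.13, Smad3 had 0.24 and Smad2 had 0.07. The dim Smad1 probe with the negative value and the other Smad1 probes pointed in different directions, and none passed the test.

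Of the 7 antagonist genes 5 were tested, 2 rose and none fell (40% called, against 27.5% over all tested probes). The share rests on few probes and counts Fst, which was tested through the hSRY-ON hearts alone. With detection required on all 6 arrays, 1 of 3 antagonist probes was called. Fst, the secreted antagonist that binds activins, was not detected in any hSRY-OFF heart (5.0, 4.59 and 4.61) and was detected in all 3 hSRY-ON hearts (7.84, 8.50 and 7.85). Since its hSRY-OFF level was not above background, the fold is given as a bound, the mean hSRY-ON level against the lowest level of a detected probe on each hSRY-OFF array (or that of Fst where higher), and Fst was at least 6.21-fold higher in hSRY-ON (limma adjusted p = 9.78e-05). The groups lay far apart, with fitted differences between 1.42 (no background correction) and 3.46. The call was kept under every setting that tested the probe. However, Fst entered the test through the hSRY-ON hearts alone, with hSRY-OFF at background. Its adjusted p and kept calls are therefore no independent support for a rise, and requiring detection on all 6 arrays dropped the probe. Fstl1, a secreted follistatin-like glycoprotein, read 12.34, 12.18 and 12.10 in hSRY-OFF and 12.92, 12.74 and 12.72 in hSRY-ON (0.59, SE 0.13, limma adjusted p = 0.012). All hSRY-ON hearts were higher, and the call stood whichever heart was left out (adjusted p up to 0.0485). Bmper, which binds BMPs outside the cell, had 0.47 (limma adjusted p = 0.0703) with no overlap between groups, and Fstl4 had -0.69, neither of them called.

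The latency proteins showed a rise at one gene. Ltbp3, which is secreted bound to latent TGF-beta, was called at both tested probes. The brighter probe read 10.10, 10.02 and 10.06 in hSRY-OFF and 10.59, 10.37 and 10.41 in hSRY-ON (0.39, SE 0.12, limma adjusted p = 0.0421), and the dimmer one 7.87, 7.81 and 8.19 against 8.96, 8.45 and 8.58 (0.71, SE 0.17, limma adjusted p = 0.0211). Both separated the groups. The brighter probe lost its call whichever heart was left out (0.33 to 0.44, adjusted p 0.0608 to 0.14) and with the block (0.0768), and the dimmer one without replicate 1 or 2 of hSRY-OFF or replicate 1 of hSRY-ON (0.56 to 0.83, adjusted p up to 0.0754). Ltbp1 had -0.01 and the 3 tested Ltbp4 probes had 0.17, 0.10 and 0.08, none called.

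Among the other proteins with a matching symbol, Tgfb1i1 and Tgfbi rose. Tgfb1i1 (Hic-5), a focal adhesion protein found in smooth muscle and fibroblasts and inducible by TGF-beta, read 9.94, 9.93 and 9.98 in hSRY-OFF and 10.94, 10.64 and 10.84 in hSRY-ON (0.86, SE 0.12, limma adjusted p = 0.00245). Its second probe read 9.21, 9.26 and 9.11 against 10.04, 9.73 and 9.92 (0.71, SE 0.13, limma adjusted p = 0.00619). The hSRY-OFF hearts were close together at both probes and well below the hSRY-ON hearts. Tgfbi, a matrix protein induced by TGF-beta, read 9.72, 9.87 and 9.61 in hSRY-OFF and 10.11, 10.37 and 10.93 in hSRY-ON (0.74, SE 0.21, limma adjusted p = 0.0378). The call was lost on leaving out any hSRY-OFF heart or hSRY-ON replicate 2 or 3 (0.51 to 0.92, adjusted p up to 0.101) and with the block (0.0671). The second Tgfbi probe read 8.0, 7.76 and 7.80 against 8.08, 8.58 and 9.02 (0.71) and missed the threshold (limma adjusted p = 0.0556). Tgfbrap1, which binds TGF-beta receptors, had 0.31, Bmp1, a protease that trims procollagens, had 0.14 to 0.50 at 4 probes, and the kinase Bmp2k had 0.35 and 0.14, none called.

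**Figure D3:**
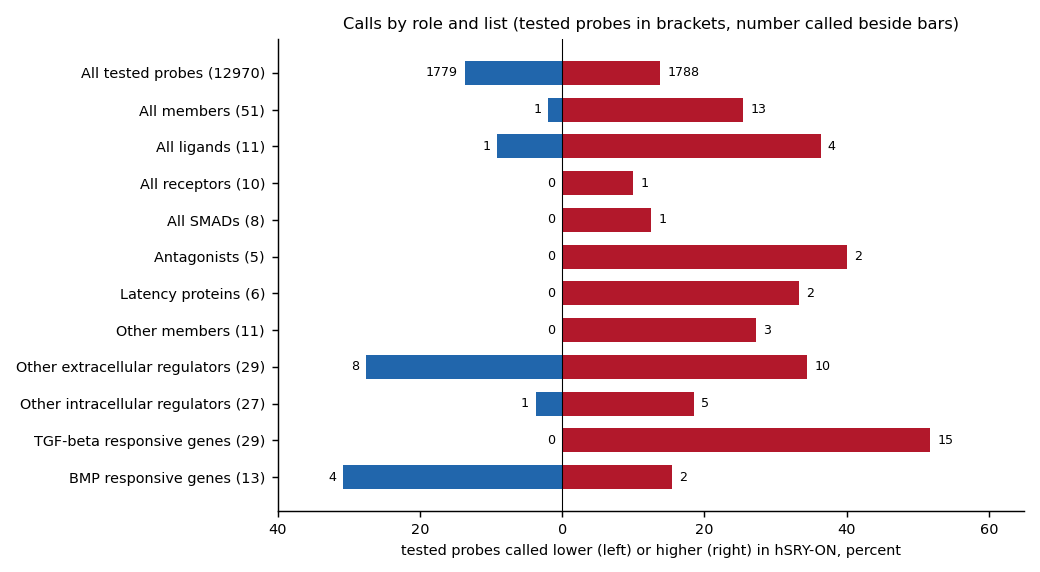
Share of tested probes called lower (bars to the left, blue) or higher (bars to the right, red) in hSRY-ON hearts, in percent, for all tested probes, for each role among the members and for 4 lists of other pathway genes, with the number called beside each bar. All tested probes are split evenly, and the members have 13 higher against 1 lower.

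The other 23 member genes had no tested probe. They were the ligands Bmp2, Bmp3, Bmp6, Bmp8a, Bmp8b, Bmp15, Gdf2, Gdf3, Gdf5, Gdf6, Inhbc and Inhbe, the receptors Acvr1b, Acvr1c, Acvr2a, Acvrl1, Bmpr1b and Bmpr2, the SMADs Smad7 and Smad9, the antagonists Fstl5 and Grem1, and Ltbp2. Of the 35 untested member probes, 30 were detected on no array. Acvrl1, the endothelial type I receptor, was detected in 2 hSRY-OFF hearts and no hSRY-ON heart, and Bmp15, Ltbp2, one Bmpr2 probe and one Ltbp1 probe were detected on 1 array each. A probe that was not detected gives no level for its gene, and no fold was computed for these members.

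Lists of other genes of the pathway, 4 in all, were read beside the members. Over all tested probes 27.5% were called, 13.8% higher and 13.7% lower. The lists were chosen with earlier results of these data known, so their counts describe these hearts and do not test a response of the pathway. Of 29 tested probes of extracellular regulators, 10 rose and 8 fell (62.1% called), and the median difference was 0.32. The falls were led by Itgb6, whose integrin frees TGF-beta from its latent complex. Its brightest probe read 9.06, 9.23 and 9.22 in hSRY-OFF and 5.84, 5.25 and 5.20 in hSRY-ON (-3.74, SE 0.19, limma adjusted p = 4.49e-05), being detected in 1 of the 3 hSRY-ON hearts, and its other 2 probes, not detected in hSRY-ON, were at least 3.10-fold and 3.21-fold lower. All 3 Itgb6 probes separated the groups widely. The 2 Itgb6 probes not detected in hSRY-ON entered the test through the hSRY-OFF hearts alone, as did a probe of Hfe2. Their adjusted p and kept calls are therefore no independent support for a fall, and the 62.1% counts them. The genes that follow were named after their values were seen. The protease Htra1 (-1.30 and -1.28) and the proteoglycan Dcn (-0.90 at one probe, -0.30 and not called at the other) were also lower. Hfe2 was lower too, by -1.25 at one probe and at least 1.18-fold at the other, which was not detected in hSRY-ON. Higher were the protease Htra3 (1.43 and 0.78), the latent complex activator Thbs1 (1.27) and the integrin subunit Itgav (0.81). So were the convertase Furin (0.79 and 0.78), Bgn (0.76) and the co-receptor Eng (0.75).

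Intracellular regulators had 5 of 27 tested probes higher and 1 lower (22.2% called, near the 27.5% over all tested probes), with a median of 0.15. Among the rises, Tgif2 was not detected in any hSRY-OFF heart and entered the test through the hSRY-ON hearts alone. Its call is therefore no independent support for a rise. Tob1, an antiproliferative protein that can bind SMADs, fell by 0.81 (SE 0.11, limma adjusted p = 0.00215), the ubiquitin ligase Nedd4l rose by 0.70 and the SMAD corepressor Skil by 0.51. Fitting the replicate number as a block gave 2 calls on this list instead of 6, leaving out hSRY-ON replicate 1 or 3 also gave 2, and leaving out replicate 1 or 2 of hSRY-OFF or replicate 2 of hSRY-ON gave 3.

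The list of TGF-beta responsive genes had 15 of 29 tested probes higher and none lower, and its median difference was 0.66. That is 51.7% called, against 27.5% over all tested probes, of which 13.8% were higher. By gene, 11 of the 21 tested were higher, with 4 of the 15 probes from Acta2. Timp1, an inhibitor of matrix proteases, read 9.68, 9.67 and 9.91 in hSRY-OFF and 13.11, 13.10 and 12.74 in hSRY-ON (3.23, SE 0.15, limma adjusted p = 3.44e-05), and 3.17 at its second probe. Tagln, an actin-binding protein of smooth muscle, read 6.87, 6.96 and 7.44 against 9.71, 8.31 and 8.70 (1.81, SE 0.34, limma adjusted p = 0.00766). Both genes separated the groups, Timp1 by far more than the spread within them. Named after their values were seen, Ctgf (1.5), Sphk1 (1.48), Snai1 (1.32), Lox (1.11), Eln (0.66) and all 4 probes of Acta2 (0.53 to 1.48) were higher too. The fibrillar collagens of the list were not called, with 0.05 for Col1a1, 0.10 for Col1a2 and -0.79 and -0.60 for Col3a1, and Cthrc1 was detected on no array. Also not called were Junb (0.69), Klf10 (0.59), Pmepa1 (0.55), Nox4 (0.23), Ltb4r1 (-0.15), Pdgfb (-0.16) and Tgif1 (0.21 and 0.46). Cdkn1a was called at one probe (0.68) and not at the others (0.83 and 0.45). Thbs1 stands on this list and on that of extracellular regulators, Skil on this list and on that of intracellular regulators, and Acta2 and Tagln on this list and on that of smooth muscle markers. The same heart was often the highest: hSRY-ON replicate 1 was the highest of the 6 for 13 of these 15 probes, and for 9 of the 13 member probes that rose. This was the heart with the Scgb1a1, Sftpd and Col2a1 signal, and without it 11 probes of the list were called.

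BMP responsive genes had 2 of 13 tested probes higher and 4 lower (46.2% called, against 27.5% over all tested probes), with a median of 0.04. The homeobox gene Msx1 was lower by a difference of -0.92 (SE 0.19, limma adjusted p = 0.0114) and Hey2, a transcriptional repressor made in ventricular muscle, by -0.79 and -0.78 at its 2 probes. Id1 and Id3, direct targets of BMP SMADs in many cells, had 0.24 and 0.32 and were not called, while Id2 (0.76) and Nkx2-5 (0.68) rose and Hand2 (-0.67) fell. Leaving out hSRY-ON replicate 1 gave 3 calls instead of 6. Of the 43 distinct called probes of the 4 lists, 30 kept their call whichever heart was left out. The 30 include the Itgb6 probes that entered the test through the hSRY-OFF hearts alone.

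**Figure D4:**
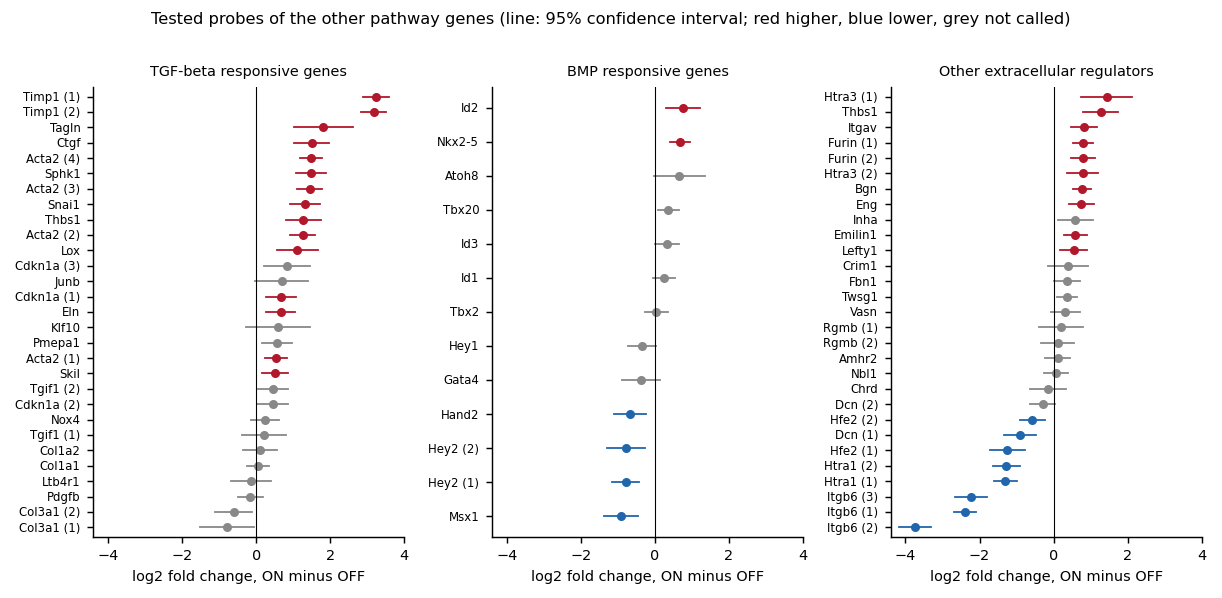
Difference between hSRY-ON and hSRY-OFF hearts (log2) for each tested probe of the TGF-beta responsive genes, the BMP responsive genes and the extracellular regulators, with 95% confidence intervals from limma, red for called higher, blue for called lower and grey for not called. The TGF-beta responsive list holds no probe called lower, while Msx1 (-0.92) and Itgb6 (-3.74) are lowest on the other lists.

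Markers of several cell types moved with the group as well. Over all tested probes 27.5% were called, 13.8% higher and 13.7% lower. Fibroblast (18.2%), mesothelial and erythroid markers (28.6% each) were called below or near that share. The shares were 53.8% for cardiomyocyte, 72.7% for macrophage, 64.3% for smooth muscle and pericyte, 57.1% for endocardial and 41.7% for endothelial markers. Atrial, ventricular, skeletal muscle, adipocyte and lymphocyte lists had 44.4%, 62.5%, 71.4%, 50% and 50%, on few probes. In bulk tissue fewer cells of a type and less RNA per cell cannot be told apart, and the part of these shifts in the results above was not tested. Cardiomyocyte markers, with all 9 genes on the array tested, had 0 of 13 tested probes higher and 7 lower, and the hSRY-OFF hearts had a summed linear level of 155000 to 166000 against 134000 to 145000 for hSRY-ON. Fibroblast markers, of the cells known for making matrix, had 1 of 11 higher and 1 lower, at 37200 to 39000 against 34500 to 38000. Macrophage markers, from cells that also make TGF-beta ligands, had 8 of 11 higher and 0 lower, at 4600 to 5900 against 10500 to 10900. Cd163, among those rises, was not detected in any hSRY-OFF heart and entered the test through the hSRY-ON hearts alone.

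Smooth muscle and pericyte markers had 5 of 14 tested probes higher, those of Acta2 and Tagln, and 4 lower. The lower probes were those of Smtn (-1.47, -1.52 and -1.24) and Notch3 (-0.49). Not called were Myh11 (-0.42), Pdgfrb (-0.43), Rgs5 (-0.57), Cspg4 (0.47) and Kcnj8 (0.66). The sum was 33700 to 41200 against 43700 to 47500, with Acta2 the brightest gene in it, and Cnn1 was detected on no array. Endocardial markers had 4 of 7 higher, at 2380 to 2720 against 4380 to 5940, with Hapln1 detected on no array. Mesothelial markers had 2 of 7 higher, at 1800 to 2270 against 2610 to 2640, with Lrrn4 detected on no array. The called probes were those of the keratins Krt8 (1.91) and Krt19 (1.32), both highest in hSRY-ON replicate 1. Not called were Upk1b (0.85), Msln (0.36) and Upk3b (-0.04, -0.13 and -0.08). Endothelial markers had 2 of 12 higher and 3 lower, at 30400 to 32600 against 30100 to 33000, with Kdr detected on no array.

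Erythroid markers had 0 of 7 tested probes higher and 2 lower, atrial ones 2 of 9 higher and 2 lower, and ventricular ones, Hey2 among them, 1 of 8 higher and 4 lower. Skeletal muscle markers had 2 of 7 higher and 3 lower, at 3440 to 5030 against 658 to 868, with Myh4, Tnnc2 and Tnnt3 detected on no array. Adipocyte markers had 2 of 4 higher, Ucp1 among them, lymphocyte markers 2 of 4 lower, and lung epithelium (3 tested) and cartilage (2 tested) none called; Scgb1a1, Sftpd and Col2a1, high in hSRY-ON replicate 1, were detected on too few arrays to be tested.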

How the data were processed

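RNA from 6 mouse hearts, 3 hSRY-ON and 3 hSRY-OFF, was read on Illumina expression arrays. The deposited table gave one intensity per probe and array, not yet normalized, with a detection p-value that the authors deposited beside it. The submitters' processing notes name limma and the methods name TCC, neither with settings; all columns of per-sample values were used (0 left out).

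Intensities were background-corrected with normexp fitted through the detection p-values, an offset of 16 was added, and arrays were quantile normalized on the linear scale and put on the log2 scale, as in neqc (limma 3.58.1, R 4.3.3). Probes detected (p-value under 0.05) on at least 3 arrays were fitted with lmFit and eBayes, the group being the only term, and adjusted by Benjamini-Hochberg. The fit was tested on simulated data, 3 arrays against 3. It recovered 48.5% of true log2 differences of 1 and 87% of those of 2, with 10 false calls. A member that was not called can therefore not be read as unchanged. Sums and figures were made in Python 3.11.15 with pandas 2.3.3 and matplotlib 3.10.9. Marker sums add the linear level of each tested gene's brightest probe. Promoter letters came from RefSeq.

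The precision is limited by the number of arrays. Members, roles, lists and tests were chosen with earlier results of these data known. Values per heart are given for called members and for other tested probes of the same genes, and from each pathway list the 3 called probes with the largest difference are named; other names were chosen after their values were seen. Alternatives covered background correction, scaling, the probe filter, the variance model, the replicate number as a block and leaving out each heart. Single genes of the member and pathway lists, 2 in all, are counted but not reported here. A slide block was not run, since the table names no slides.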

Additional observations from a re-analysis of the deposited data

How the results depend on the processing

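Of the 16 alternatives, 9 moved at least 1 count of called probes by over 1.5 times, and the cause was not tested. The count stayed within 1.5 times under 10 of the 16 for members higher, 12 for members lower, 9 for ligands and 9 for intracellular regulators. Without normalization between arrays there were 4 members higher, 3 ligands, 0 receptors and 1 antagonist called, and 9 extracellular regulators, 1 intracellular regulator and 3 BMP responsive probes. Without a probe filter there were 8 members higher, 2 lower and 1 ligand called; with detection required on all 6 arrays, which drops Fst and Gdf15, 0 members were lower and 1 antagonist was called. Samples with the same replicate number did not deviate together (correlations of -0.02, 0.04 and -0.07), and with the number as a replicate block 7 members were higher and 2 ligands, 0 receptors and 2 intracellular regulators were called.

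Over the 6 omissions of 1 heart, members higher ranged from 5 to 12, members lower from 1 to 3, ligands called from 1 to 5, receptors from 0 to 1, antagonists from 2 to 3, extracellular regulators from 15 to 18, intracellular regulators from 2 to 6, TGF-beta responsive probes from 11 to 19 and BMP responsive probes from 3 to 6.

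The sign turned for 8 of the 36 uncalled member probes reported here (37 were uncalled in all), all with small differences. Ltbp1 went to 0.00 without background correction, 0.07 with median scaling, 0.01 with scaling in the manner of TCC, 0.08 without hSRY-OFF replicate 2 and 0.18 without hSRY-ON replicate 3. Without normalization the values were -0.01 and -0.05 for 2 Ltbp4 probes, -0.02 for Smad2, -0.11 for Acvr1, 0.00 for the dim Tgfbr1 probe and -0.06 for the dim Tgfbr2 probe. Acvr2b was 0.05 with median scaling. With 1 heart left out in turn, Ltbp1 ranged from -0.14 to 0.18, one Ltbp4 probe from -0.08 to 0.23 (-0.02 without hSRY-ON replicate 1), Smad2 from -0.02 to 0.18, Acvr1 from -0.12 to 0.09 (-0.03 without hSRY-ON replicate 3), Acvr2b from -0.23 to 0.06 and the dim Tgfbr2 probe from -0.04 to 0.16. Dim probes near background, such as those of Fst, Gdf15, Tgfb2 and Bmp10, had smaller differences without background correction (1.42, -0.56, 0.34 and 0.81). A slide block was not run.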
